A study of Mus musculus with 6 samples.

Results

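The genes described here are 10 members of the Notch pathway, chosen by name: the ligands Jag1, Jag2 and Dll1, the receptors Notch1, Notch2, Notch3 and Notch4, and the effectors Rbpj, Hes1 and Hey1. All 10 were found among the 23337 genes of the count files, and all 10 passed the filter on low counts that left 13925 genes for testing. Their messenger RNA was counted in basal cells of the mammary epithelium of mice, a layer that includes the contractile myoepithelial cells. The cells had been sorted from collagenase-digested glands as live cells without CD45 (leukocytes) or CD31 (endothelium), with low CD24 and high CD49f. The 2 wild-type samples had the genotype Vimwt/wt and the 4 knockout samples the genotype Vimtm1Cba/tm1Cba, a homozygous targeted allele of the vimentin gene; no Cre driver is named in the labels. All mice were 15 weeks old, of the strain 129/Sv X C57BL/6, and cells from 2 to 3 mice went into every sample, so that a value is a mean over animals. The labels state that cells were isolated in 2 experiments. The file naming puts wild type 1 and knockout 1 and 2 together (here experiment 1) and wild type 2 and knockout 3 and 4 together (experiment 2).

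Notch signalling passes between touching cells. A ligand of the Jagged or Delta-like family on one cell binds a Notch receptor on its neighbour, the receptor is cut by an ADAM protease and then by gamma-secretase, and the released intracellular part enters the nucleus. There it binds RBPJ, a DNA-binding protein that otherwise recruits corepressors, and switches on genes such as Hes1 and Hey1, which encode transcriptional repressors. In the mammary gland, Notch activity is known for favouring luminal over basal fate, and basal cells are known as carriers of ligands.

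Upstream sequences are shown for the receptors with the highest and the lowest level in these cells (Notch2 and Notch4), for the most abundant ligand (Jag1) and for Rbpj, the one matched member whose windows held the RBPJ core motif TGGGAA. They were taken from RefSeq on GRCm38.p6, the assembly that mm10 stands for, and are given 5′ to 3′ on the gene's strand, with only the bases upstream of the RefSeq start that lie outside all exons of GENCODE M21. Capitals mark TGGGAA or GGGCGG (the GC box) on either strand. The Rbpj stretch lies before a start site inside the span of the counted gene (53555779 to 53657445), not before that span.
Notch2, chr3:98013288-98013526, plus strand: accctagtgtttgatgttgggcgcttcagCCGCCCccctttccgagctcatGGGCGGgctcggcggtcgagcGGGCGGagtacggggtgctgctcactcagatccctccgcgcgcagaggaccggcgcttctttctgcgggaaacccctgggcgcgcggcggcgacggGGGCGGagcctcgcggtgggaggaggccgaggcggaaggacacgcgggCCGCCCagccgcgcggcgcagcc
Notch4, chr17:34564045-34564267, plus strand: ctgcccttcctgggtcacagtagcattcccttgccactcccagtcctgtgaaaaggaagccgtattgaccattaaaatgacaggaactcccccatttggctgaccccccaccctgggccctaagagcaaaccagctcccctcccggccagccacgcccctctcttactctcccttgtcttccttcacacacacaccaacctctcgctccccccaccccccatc
Jag1, chr2:137116645-137116770, minus strand: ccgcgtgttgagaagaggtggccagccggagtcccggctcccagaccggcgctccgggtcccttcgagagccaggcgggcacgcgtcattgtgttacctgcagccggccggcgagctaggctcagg
Rbpj, chr5:53590096-53590213, plus strand: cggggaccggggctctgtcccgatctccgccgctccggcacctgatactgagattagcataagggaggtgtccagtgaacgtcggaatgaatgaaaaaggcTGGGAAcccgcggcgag

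RefSeq upstream windows were found for 8 of the 10 members, in 10 windows, since Dll1 and Rbpj each had 2 start sites; Hes1 and Hey1 were not matched. Over the 250 bases before the start, Notch2 had a GC content of 72.0%, with 34 CpG dinucleotides and 5 GC boxes, and Notch4 one of 58.4%, with 4 CpG dinucleotides and no GC box. Jag2 had the highest GC content of the windows, at 87.2%, with 54 CpG dinucleotides and 5 GC boxes. Jag1 had 57.2%, with 20 CpG dinucleotides and no GC box. Of 6 motifs searched on both strands, TGGGAA was found in 2 of the 10 windows, both of Rbpj and overlapping each other, against 21.6% of 32851 windows of the same length. GGGCGG was found in 4 (Notch1, Notch2, Notch3 and Jag2), against 32.7% of all windows. The other motifs were CACNAG (3 windows, 36.7% of all), CCAAT (1, 33.8%), TATAAA (0, 12.4%) and CANNTG, which reads the same on both strands (5, 66.2%). A match is a description of the letters and not a binding site.

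Total counts per library ran from 25347967 to 31200622, and log2 levels correlated between libraries with Pearson's r from 0.970 to 0.989 across genes. Vim, the targeted gene, was lower in 4 of 4 knockout libraries (log2 fold change -1.12, SE 0.12, edgeR adjusted p = 0.0190). Its edgeR adjusted p lay between 0.0598 and 0.0908 when any library other than knockout 1 was left out, and was 0.0403 without knockout 1. The basal markers Krt5 and Krt14 stood at 1702 to 2358 and at 3905 to 4563 CPM (counts per library scaled to a common total). The summed level of 10 basal markers was 13557 to 15751 CPM. Of other cell types, 18 endothelial markers summed to 315 CPM in wild type 1, 122 CPM in wild type 2 and 74.2 to 100.3 CPM in the knockout libraries, and 18 of 18 had a negative log2 fold change (0 called by edgeR, 15 at an unadjusted p under 0.05). Luminal progenitor markers summed to 3408 and 3588 CPM in wild type and to 3373 to 3731 CPM in knockout (11 genes). Abundant genes weigh most in this sum, such as Lcn2 at 953 to 1339 CPM, named after its values were seen. Of the 11, 3 had a positive and 8 a negative log2 fold change (median -0.06, 0 called by edgeR). With the experiment in the model as well, edgeR called 1 of the 11 between genotypes, against 1.56% of tested genes. Kit stood at 12.9 and 5.12 CPM in wild type 1 and 2 and at 3.54 to 7.86 CPM in knockout. Elf5 stood at 8.61 and 2.31 CPM in wild type 1 and 2 and at 2.48 to 3.99 CPM in knockout. Leukocyte markers summed to 2.31 to 5.47 CPM in all libraries (10 genes, of which Cd3e had 6 reads or fewer in all).

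Basal cells carried far more message for Notch ligands than for Notch receptors. Per kb of exon, which makes genes of different length comparable, Jag1 stood at 293 ± 61.8 CPM per kb (SD, n = 6), Dll1 at 109.7 ± 15.5 and Jag2 at 45.9 ± 19.7. Jag1 was higher than 99.0% of the 13925 tested genes on this scale, Dll1 than 96.0% and Jag2 than 88.2%. The receptors followed with Notch2 at 22.5 ± 2.91 CPM per kb, Notch1 at 8.21 ± 2.17, Notch3 at 2.36 ± 0.585 and Notch4 at 0.145 ± 0.0324. Notch2 was thus the leading receptor, and Notch4, a receptor known from endothelium, was higher than only 3.40% of tested genes. Hes1 stood at 25.9 ± 7.69 CPM per kb, Rbpj at 10.3 ± 1.77 and Hey1 at 5.21 ± 2.04.

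In the order of these levels, Jag1 was above Dll1 and Dll1 above Jag2 in 6 of 6 libraries with ranges that did not overlap. Jag2 was above Hes1 in 6 of 6 libraries, but their ranges over the libraries overlapped. Hes1 and Notch2 could not be ranked, since Hes1 was the higher in 3 of 6 libraries. Notch2 was above Rbpj in 6 of 6 with no overlap. Rbpj was above Notch1, and Notch1 above Hey1, in 5 of 6 libraries with overlapping ranges. Notch3 lay below Hey1 in 6 of 6 libraries with overlapping ranges, and Notch4 lay below Notch3 in 6 of 6 with none.

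**Figure D1:**
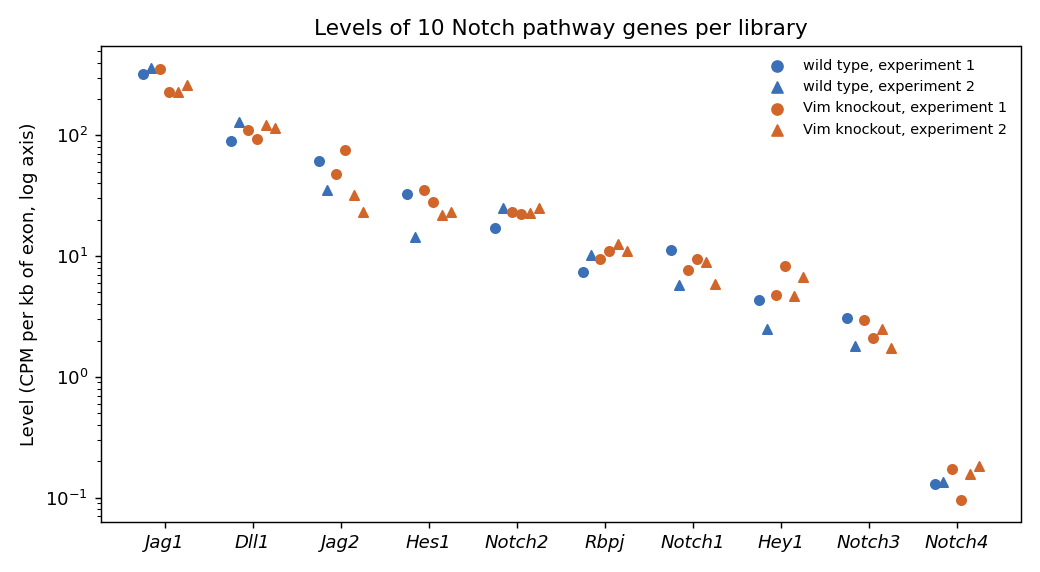
Levels of the 10 genes in each of the 6 libraries, as CPM per kb of exon on a log axis; colour gives the genotype and marker shape the experiment. Jag1 lies highest in every library (228 to 364 CPM per kb) and Notch4 lowest (0.0957 to 0.185).

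The 3 ligands together summed to 382 to 528 CPM per kb and the 4 receptors to 31.6 to 34.3, a ratio of 11.2 to 16.2. The ratio was 15.1 in wild type 1, 16.2 in wild type 2 and 15.0 in knockout 1, and it was 11.6, 11.2 and 12.1 in the other 3 knockout libraries. The receptor sum therefore differed little between libraries while its make-up differed: Notch2 made up 54.0% of it in wild type 1, 76.4% in wild type 2 and 68.0%, 65.6%, 66.1% and 76.2% in knockout 1 to 4. Notch1 made up 35.8% in wild type 1 and 17.7% to 27.9% in the other 5 libraries. Jag1 made up 57.4% to 69.1% of the ligand sum, with no library in which another ligand led.

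The main comparison asked which of these genes differ in level between vimentin knockout and wild-type basal cells. None of the 10 passed the test by edgeR over all genes (adjusted p from 0.502 to 0.999), where 0.079% of tested genes were called, 0.0575% higher and 0.0215% lower in knockout. The log2 fold changes ran from -0.36 (Jag1) to 0.85 (Hey1), with 6 above 0 and 4 below and a median of 0.08, against -0.01 over all tested genes. At an unadjusted p under 0.05 there was 1 member, Hey1, against 8.57% of all tested genes (4.48% higher and 4.09% lower). DESeq2 and limma-voom also called 0 of the 10, against 262 and 10 of all 13925 tested genes. With the experiment as replicate block edgeR called 0 of the 10 as well, against 1.56% of tested genes.

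Among the ligands, Jag1 (Jagged 1, chromosome 2, 137081451 to 137116520, mm10) had 1782 and 1998 CPM in wild type 1 and 2 and 1943, 1253, 1260 and 1423 CPM in knockout 1 to 4. Knockout 2, 3 and 4 lay below both wild-type libraries, and knockout 1 lay between them. The log2 fold change was -0.36 (SE 0.20, 95% interval -0.81 to 0.09, edgeR adjusted p = 0.708). The knockout minus wild-type difference was -0.19 in experiment 1 and -0.58 in experiment 2, in log2 units.

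Jag2 (Jagged 2, chromosome 12, 112908590 to 112929495) had 250.2 and 142 CPM in wild type and 195, 305, 129.7 and 94.1 CPM in knockout 1 to 4. The knockout libraries spread over a range that held both wild-type values, from the lowest to the highest library of the set. Its log2 fold change was -0.12 (SE 0.43, 95% interval -1.11 to 0.88, edgeR adjusted p = 0.984). With the experiment as replicate block it was -0.17 (SE 0.20, edgeR adjusted p = 0.803). Dll1 (Delta-like 1, chromosome 17, 15367354 to 15375823) had 307 and 444 CPM in wild type and 376, 322, 415 and 393 CPM in knockout 1 to 4. All 4 knockout values lay between the wild-type values, with means of 376 ± 97.0 (SD, n = 2) and 376 ± 39.8 CPM (SD, n = 4). Its interval for the log2 fold change was the range from -0.39 to 0.40.

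Among the receptors, Notch2 (chromosome 3, 98013538 to 98150367) had 179 and 263 CPM in wild type and 243, 236, 238 and 263 CPM in knockout 1 to 4. The 4 knockout libraries lay close together, near wild type 2 and above wild type 1. The log2 fold change was 0.15 (SE 0.16, 95% interval -0.21 to 0.51, edgeR adjusted p = 0.922). Notch1 (chromosome 2, 26457902 to 26503822) had 107 and 55.1 CPM in wild type and 73.3, 90.7, 85.3 and 55.7 CPM in knockout 1 to 4, all of them between the wild-type values. Its log2 fold change was -0.09 (SE 0.28, edgeR adjusted p = 0.977).

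Notch3 (chromosome 17, 32120893 to 32166852), a receptor known from pericytes and vascular smooth muscle, had 24.4 and 14.2 CPM in wild type and 23.7, 16.6, 19.6 and 13.7 CPM in knockout 1 to 4. The groups overlapped and the log2 fold change was -0.07 (SE 0.27, edgeR adjusted p = 0.986). Of the 9 other pericyte and smooth muscle markers 8 were tested, 0 were called by edgeR, and 5 had a negative and 3 a positive log2 fold change (median -0.24). Their sum was 278 and 297 CPM in wild type and 408 to 524 CPM in knockout, of which Mcam, named after its values were seen, made up 245 and 275 CPM in wild type and 387 to 497 CPM in knockout. With the experiment as replicate block Mcam was the 1 marker of this list called (log2 fold change 0.82, edgeR adjusted p = 0.0094), against 1.56% of tested genes. Without Mcam the sum was 32.8 and 22.4 CPM in wild type and 20.1 to 26.6 CPM in knockout. The pericyte marker Rgs5 stood at 4.78 and 1.46 CPM in wild type and at 0.472 to 2.02 CPM in knockout (log2 fold change -1.59, edgeR adjusted p = 0.520). The part of pericyte RNA in Notch3 was not tested.

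Notch4 (chromosome 17, 34564295 to 34588543) had 28 and 23 reads in wild type 1 and 2 and 36, 16, 31 and 31 reads in knockout 1 to 4, the lowest counts of the 10 genes. The levels were 0.852 and 0.885 CPM in the wild types, and 1.13, 0.632, 1.04 and 1.22 CPM in the knockouts. Wild type 1 had the highest endothelial markers (Pecam1 at 30.4 CPM against 3.46 to 12.1 CPM in the other 5 libraries). Its Notch4 level lay within the range of the knockouts, at counts too low to show a small contribution. The part of endothelial RNA in Notch4 was not tested. The log2 fold change was 0.21 with a 95% interval from -0.69 to 1.12 (edgeR adjusted p = 0.959). In these bulk samples, fewer cells of a type and less RNA per cell cannot be told apart.

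The effectors all had positive log2 fold changes, and none was called. Hey1 (chromosome 3, 8663359 to 8667038) had 9.49 and 5.47 CPM in wild type 1 and 2 and 10.5, 18.3, 10.3 and 14.8 CPM in knockout 1 to 4. The groups did not overlap, though wild type 1 lay close to knockout 1 and 3. The means were 7.48 ± 2.85 (SD, n = 2) and 13.5 ± 3.84 CPM (SD, n = 4), a fold of 1.8. The log2 fold change was 0.85 ( SE 0.32, 95% interval 0.12 to 1.57), with an edgeR quasi-likelihood p of 0.0275 and an adjusted p of 0.502. Hey1 was the 1 member with all 4 knockout libraries above both wild-type libraries, a pattern that 7.6% of all tested genes shared. None of the 10 members had all knockout libraries below both wild-type libraries, against 8.57% of tested genes. Within the experiments the log2 differences of Hey1 were 0.54 and 1.17, and the adjusted p with the experiment as block was 0.178 by edgeR. Leaving out wild type 2 gave 0.51, and leaving out wild type 1 gave 1.32.

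Rbpj (chromosome 5, 53555779 to 53657445) had 42.9 and 59.7 CPM in wild type and 54.8, 63.5, 73.3 and 64.5 CPM in knockout 1 to 4. Knockout 2, 3 and 4 lay above both wild-type libraries and knockout 1 between them. The log2 fold change was 0.32 (SE 0.17, 95% interval -0.06 to 0.70, edgeR adjusted p = 0.682, or 0.217 with the experiment as block). Hes1 (chromosome 16, 30065357 to 30067796) had 47.1 and 20.8 CPM in wild type and 51.4, 40.7, 31.7 and 33.6 CPM in knockout 1 to 4. The wild-type libraries lay near the opposite ends of the range, and the log2 fold change, 0.21 with an SE of 0.32 (edgeR adjusted p = 0.954), became -0.26 without wild type 2 and 0.94 without wild type 1.

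**Figure D2:**
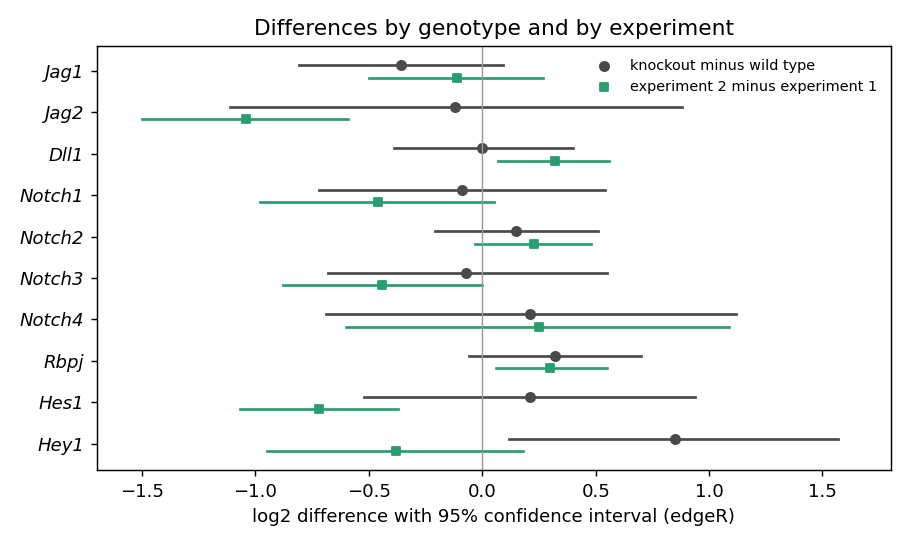
Log2 differences of the 10 genes with 95% confidence intervals from edgeR, for knockout minus wild type (circles, 4 against 2 libraries) and for experiment 2 minus experiment 1 (squares, 3 against 3 libraries, genotype held in the model). The widest genotype interval is that of Jag2 (-1.11 to 0.88), whose difference between experiments is -1.04.

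Jag2 and Hes1 differed between the experiments. With genotype in the model, these 2 of the 10 members were called by edgeR, both lower in experiment 2, and 0 were called higher. Of all tested genes 6.43% were called, 3.04% lower and 3.39% higher in experiment 2. The median log2 difference of the 10 was -0.25, against -0.02 over all tested genes.

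Jag2 stood at 250.2, 195 and 305 CPM in the 3 libraries of experiment 1 and at 142, 129.7 and 94.1 CPM in those of experiment 2. The experiments did not overlap, and the means of 250.1 ± 54.6 and 122 ± 24.9 CPM (SD, n = 3 each) differed by a log2 difference of -1.04 (SE 0.20, edgeR adjusted p = 0.0247). The log2 difference was -0.82 between the wild-type libraries and -1.14 between the knockout libraries. The adjusted p by edgeR rose to 0.106 without wild type 1 or 2, to 0.0712 without knockout 4 and to 0.0535 with no filter on low counts, while the difference stayed between -1.18 and -0.81 whichever library was left out. Leaving out either wild-type library leaves a comparison of 2 knockout libraries with 2.

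Hes1 stood at 47.1, 51.4 and 40.7 CPM in experiment 1 and at 20.8, 31.7 and 33.6 CPM in experiment 2. The means of 46.4 ± 5.35 and 28.7 ± 6.89 CPM (SD, n = 3 each) did not overlap in their libraries and differed by a log2 difference of -0.72 (SE 0.16, edgeR adjusted p = 0.0278). Wild type 2 was the lowest library, and without wild type 1 or 2 the difference was -0.50 (edgeR adjusted p = 0.201 and 0.192). It was -0.76 without knockout 3 and -0.81 without knockout 4 (edgeR adjusted p = 0.0614 and 0.0738).

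Of 10 hormone-sensing luminal markers, all 10 tested had a lower fitted level in experiment 2 (median log2 difference -0.60) and 2 were called by edgeR, against the 6.43% of all tested genes. Their sum was 195 to 309 CPM in experiment 1 and 136 to 181 CPM in experiment 2. Of 10 fibroblast markers 4 had a positive log2 difference and 6 did not (median -0.08), and 1 was called, higher in experiment 2. The fibroblast sum was 342 to 373 CPM in experiment 1 and 446 to 455 CPM in experiment 2, a direction that most of its genes did not share. Between genotypes, 9 of the 10 hormone-sensing luminal markers had a positive log2 fold change (median 0.32, 0 called by edgeR). So had 7 of 8 Schwann cell markers (median 0.92, 0 called) and 2 of the 10 fibroblast markers (median -0.24, 0 called). With the experiment as replicate block edgeR called 1 of the 8 Schwann cell markers, against 1.56% of tested genes, and 0 of the hormone-sensing luminal and fibroblast markers. The part of these cell types in the differences of Jag2 and Hes1 between experiments, or of the effectors between genotypes, was not tested.

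Dll1 had the opposite direction, with 307, 376 and 322 CPM in experiment 1 and 444, 415 and 393 CPM in experiment 2. The experiments did not overlap, but the log2 difference, 0.32 with an SE of 0.11 (edgeR adjusted p = 0.118), was not called. Jag2, Hes1 and Dll1 were the 3 members whose experiments did not overlap, a pattern that 26.1% of tested genes showed (13.5% with experiment 1 higher, 12.6% with experiment 2 higher). As a ratio per kb, Jag2 stood at 0.440 to 0.801 of the Dll1 level in experiment 1 and at 0.203 to 0.270 in experiment 2. Without knockout 1, Dll1 (edgeR adjusted p = 0.0227) and Hey1 (-0.65, edgeR adjusted p = 0.0429) were called between experiments as well, and without knockout 3 Notch1 was (-0.73, edgeR adjusted p = 0.0288). Jag1 had a log2 difference of -0.11 (SE 0.17, edgeR adjusted p = 0.744).

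**Figure D3:**
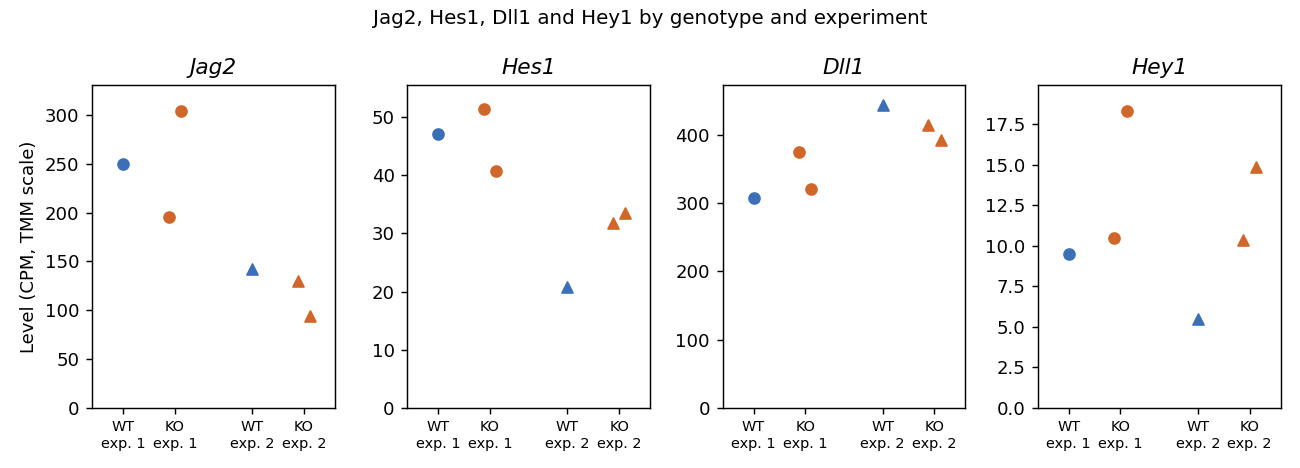
Levels of Jag2, Hes1, Dll1 and Hey1 in CPM, 1 point per library, by genotype (WT wild type, KO knockout) and experiment; axes start at 0. All 3 Jag2 points of experiment 1 (195 to 305 CPM) lie above those of experiment 2 (94.1 to 142), while all 4 Hey1 points of the knockout lie above both wild-type points.

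The rest of the pathway was read from a list of 62 other genes, of which 59 were tested; Hes2, Hes3 and Hes7 had too few reads. None was called between genotypes by edgeR, and 0 were called with the experiment as block, by DESeq2 or by limma-voom. Of all 13925 tested genes these fits called 11, 217, 262 and 10, in that order. By edgeR 3 of 59 (Adam17, Maml3 and Mfng) had an unadjusted p under 0.05, no larger a share than the 8.57% of all tested genes. The values of the genes named by role are given as a description. Of the 59, 25 had a positive and 34 a negative log2 fold change, with a median of -0.05 against -0.01 over all tested genes. Of these genes 7 had all knockout libraries below both wild-type libraries, a pattern of 8.57% of tested genes, and 0 had all above (7.6%).

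Adam17, which encodes a protease that can cut Notch receptors, had 77.3 and 79.6 CPM in wild type and 60.8, 60.1, 64.1 and 61.0 CPM in knockout 1 to 4. The groups stood apart by more than the spread within either. The log2 fold change was -0.35 (SE 0.10, 95% interval -0.57 to -0.13), with an edgeR adjusted p of 0.295, or 0.0940 with the experiment as block. The difference was -0.36 in experiment 1 and -0.35 in experiment 2. Maml3, a Mastermind-like coactivator of the Notch complex, had 70.0 and 59.5 CPM in wild type and 58.5, 42.7, 43.3 and 45.5 CPM in knockout (log2 fold change -0.45, SE 0.15, edgeR adjusted p = 0.437). Knockout 1 lay close to wild type 2.

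Mfng, a Fringe glycosyltransferase that modifies Notch receptors, was low, with 24 and 21 reads in wild type and 16, 9, 9 and 4 in knockout (log2 fold change -1.19, SE 0.50, edgeR adjusted p = 0.563). Dll4, a ligand known from endothelium, had 63 and 42 reads in wild type and 34, 14, 46 and 20 in knockout (-0.83, SE 0.42, edgeR adjusted p = 0.678). In CPM, every knockout library was below both wild-type libraries for both genes. For Dll4 the margin was small, with knockout 3 at 1.55 CPM and wild type 2 at 1.62 CPM. The summed endothelial markers were likewise lower in every knockout library (74.2 to 100.3 CPM) than in wild type 1 and 2 (315 and 122 CPM). Among the knockout libraries the order differed for both genes. Knockout 2 had the highest endothelial sum of the knockouts (100.3 CPM) and the lowest Dll4 level (0.553 CPM). The part of endothelial RNA was not tested.

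The other genes named by role were far from the threshold. Nrarp, a Notch target whose product limits the pathway, had 3.498 and 5.31 CPM in wild type and 4.82 to 6.68 CPM in knockout (log2 fold change 0.37, SE 0.26, edgeR adjusted p = 0.816). The ubiquitin ligase gene Neurl1a (-0.58, SE 0.32) and the HEY factor gene Hey2 (-0.52, SE 0.57) had edgeR adjusted p of 0.722 and 0.928. The tested members of the other HES and HEY factors numbered 4, all with negative log2 fold changes and levels of at most 7.86 CPM.

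**Figure D4:**
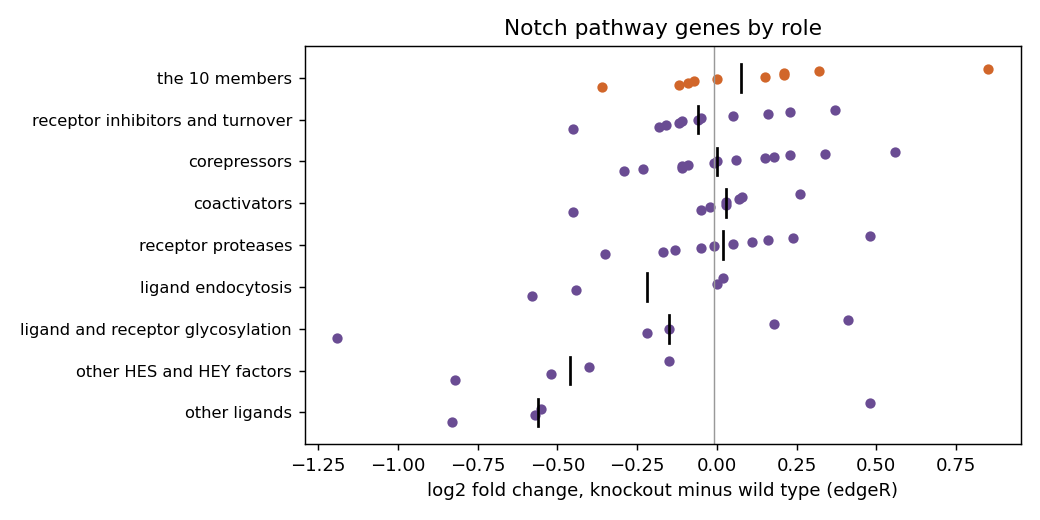
Log2 fold changes, knockout minus wild type, of the 59 tested pathway genes by role and of the 10 members; each point is a gene, black bars are medians and the grey line is the median of all tested genes (-0.01). Points lie on both sides of the line in most roles, and Mfng (-1.19) and Hey1 (0.85) lie farthest out.

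Between experiments, 3 of the 59 were called by edgeR, again against 6.43% of all genes. Named after their values were seen, they were the Fringe gene Lfng (log2 difference, experiment 2 minus 1, -0.95, SE 0.21, adjusted p = 0.0288), the corepressor gene Tle2 (-0.80, SE 0.14, adjusted p = 0.0132) and the Numb-like gene Numbl (0.62, SE 0.10, adjusted p = 0.0109). Lfng stood at 12.4, 12.04 and 17.9 CPM in experiment 1 and 5.23, 10.04 and 7.04 CPM in experiment 2. Without wild type 1, wild type 2 or knockout 4 none of the 3 was called (edgeR adjusted p from 0.0721 to 0.244), and Lfng was not called without knockout 2 (0.0763).

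The genes whose levels followed each member most closely over the 6 libraries were taken from 10704 genes of sufficient level. With 6 libraries and so many genes, high correlations arise in number (73 to 420 genes per member had a Pearson's r over 0.9), so they are given as a description and without a test. For Hes1 the closest were Pgr, which encodes the progesterone receptor (r = 0.994), and Mgat5 (r = 0.991). Pgr had 25.6, 29.5 and 18.4 CPM in experiment 1 and 6.12, 12.6 and 12.04 CPM in experiment 2, the same order of the experiments as Hes1. For Jag2 they were Zc3h14 (0.997) and Nynrin (0.996), for Jag1 Zfp580 (0.996) and Slc38a7 (0.995), and for Dll1 Degs1 (0.992) and Pigf (0.991). Among the receptors, Notch1 was followed by Dnalc1 (0.997) and Slc29a1 (0.99), Notch2 by Zbtb41 (0.988) and Cops2 (0.986), Notch3 by Nans (0.999) and Plin3 (0.993), and Notch4 by Ndufb2 (0.989) and Rbmx2 (0.987). Rbpj was followed by Pla2g16 (0.996) and Samd4b (0.995) and Hey1 by Leprel4 (0.994) and Pmaip1 (0.989).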

How the data were processed

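The authors deposited raw read counts per gene, 1 file per library, made with featureCounts 1.5.1 over exons of the UCSC mm10 annotation in the reverse-stranded setting (option 2), per the file headers, with no option set to count multi-mapped reads or reads over several genes. Base calls and alignment used bcl2fastq 2.17 and STAR 2.5.2b, per the submitters' processing notes. No other annotated gene lies within the span of any of the 10 members in these files. The deposited files also give the exonic length per gene, used for levels per kb.

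Counts were fitted with edgeR 4.0.16 in R 4.3.3 (filterByExpr, TMM, glmQLFit robust, glmQLFTest, 2-sided) over all tested genes, with genotype as the only term, and a call needed p under 0.05 after Benjamini-Hochberg adjustment. The experiment was tested with genotype as a second term. CPM were scaled by TMM, a prior count of 2 entered their log2, SE is the log2 fold change over the root of F, and intervals are at 95%; they cover the spread between these pooled samples. DESeq2 1.42.0 and limma-voom (limma 3.58.1) were alternatives. On simulated counts over 13723 genes, the genotype fit found 72% of the 2-fold and 93% of the 4-fold changes, and 7.3% of its calls were false. The simulated counts held no difference between experiments, and their spread was taken from the model with genotype and experiment. These shares therefore do not carry over to the genotype fit of the real counts, where the experiments differed.

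The labels give no sample its experiment. Deviations from the group means correlated within experiments coded by file name (r = 0.32, 0.29, 0.25 and 0.41), and the experiment served as the replicate block. With 2 wild-type libraries, the values across experiments are the same ones with the sign turned, and add no support. The block changed no call among the members.

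The members and lists were chosen with earlier results of these data known. The genes named were the members, and Vim, Pecam1, Rgs5, Krt5, Krt14, Kit and Elf5 as markers. Also named were, per role, the pathway gene with the smallest p. Per member, the 2 genes of highest r whose log2 CPM averaged 1 or more were named, predicted genes left out. The result for 1 gene that this rule names is not reported here.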

Additional observations from a re-analysis of the deposited data

Results flagged for a closer look

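In 2 members both knockout libraries of experiment 1 lay on one side of wild type 1, and both of experiment 2 on the opposite side of wild type 2. For Dll1 the log2 differences were 0.18 in experiment 1 and -0.14 in experiment 2, and for Notch1 they were -0.40 and 0.32. For Notch1, knockout 4 at 55.7 CPM was nearly level with wild type 2 at 55.1 CPM. Each rests on 1 wild-type library per experiment, and the difference between the experiments was not tested. The share of all tested genes with this pattern was not counted. Among the 4 knockout libraries, no member had a library far from the others by Dixon's rule.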

How the results depend on the processing

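Leaving out each library in turn, other size factors, other filters, DESeq2, limma-voom and both blocks left 0 of the 10 members and 0 of the other pathway genes tested in each (59 in the reported analysis) called between genotypes. Over all genes, 11 were called between genotypes, 262 by DESeq2, 217 with the replicate block by experiment, and 3 to 15 with 1 library left out (leaving out wild type 1 gave 4, knockout 3 gave 3, and knockout 2 or 4 gave 5). Between experiments 895 genes were called, 1473 by DESeq2, 20 with the knockout libraries only and 38 to 1838 with 1 library left out (leaving out wild type 1 gave 38, wild type 2 gave 42, knockout 1 gave 1838, knockout 3 gave 482 and knockout 4 gave 120). Of the members 2 were called between experiments, 1 with no filter on low counts, 0 with the knockout libraries only and 0 to 4 with 1 library left out; the cause was not tested.

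The title numbers do not pair the libraries (r = 0.32 for wild type 1 and knockout 1, -0.29 for wild type 2 and knockout 2). With a replicate block by title number over the 4 libraries numbered 1 and 2, the log2 fold change changed sign for Jag2 (0.37), Dll1 (-0.09), Notch1 (0.08), Notch3 (0.09) and Notch4 (-0.01). With 1 library left out the sign changed in some cases for Jag2 (-0.47 to 0.37), Dll1 (-0.22 to 0.30), Notch1 (-0.49 to 0.49), Notch2 (-0.08 to 0.45), Notch3 (-0.40 to 0.40) and Hes1 (-0.26 to 0.94), and between experiments for Jag1 (-0.25 to 0.13). Jag1, Rbpj and Hey1 kept their sign between genotypes under all 13 alternatives. With 2 wild-type libraries the spread of that group rests on 1 difference, and Notch4 at 16 to 36 reads is limited by depth.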
